A study of Homo sapiens with 35 samples.

Results

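The replicative helicase and the factors that load and start it were followed through 10 genes, MCM2, MCM3, MCM4, MCM5, MCM6, MCM7, MCM10, CDC45, CDC6 and CDT1, out of 22384 genes measured. They were chosen by symbol, and each was read through its single-symbol probe set, of which each had exactly 1. RNA came from SUM149, a line derived from an inflammatory triple-negative breast cancer, and was measured on Affymetrix arrays. The 35 arrays form 12 groups. Cells received PP242 with IR, PP242, RAD001 with IR, RAD001, IR, or DMSO, and each treatment was measured as polysome RNA (mRNA on ribosomes) and, separately, as total RNA. PP242 is an ATP-competitive inhibitor of the mTOR kinase and therefore acts on both mTOR complexes, RAD001 (everolimus) is an allosteric inhibitor of mTOR complex 1, and DMSO is the vehicle. IR is not spelled out in the labels, which also give no dose and no time. Each group had 3 arrays except the total RNA of PP242 with IR, where there were 2. All arrays come from this 1 cell line.

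Origins of replication are licensed before S phase. The origin recognition complex recruits CDC6, and CDC6 with CDT1 loads MCM2 to MCM7 onto DNA as an inactive ring. CDC45 and the GINS complex then join the ring to make the active helicase, and MCM10 helps it to start and to stay on the fork. Most genes of this machinery are known targets of E2F transcription factors and peak in late G1 and S phase. In a bulk measurement, fewer cells expressing a gene and less RNA per cell cannot be told apart.

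The promoters of 4 of the genes are shown because CDC6 and MCM10 were the members that passed a test with PP242, once 8 arrays described below were left out, while MCM3 and MCM6, the pair with the highest correlation on the same arrays, did not pass. The sequences are from RefSeq on GRCh38.p14, written 5′ to 3′ on the gene's strand, from 250 bases before to 30 bases after the annotated start. CDC6 lies at chr17:40287629-40287908, + strand, MCM10 at chr10:13161308-13161587, + strand, MCM3 at chr6:52284713-52284992, - strand and MCM6 at chr2:135876414-135876693, - strand. Capitals mark E2F-like matches (TTTCCCGC, TTTCGCGC, TTTGCCGC or TTTGGCGC on either strand) and CCAAT on either strand, which reads ATTGG on the other.
CDC6: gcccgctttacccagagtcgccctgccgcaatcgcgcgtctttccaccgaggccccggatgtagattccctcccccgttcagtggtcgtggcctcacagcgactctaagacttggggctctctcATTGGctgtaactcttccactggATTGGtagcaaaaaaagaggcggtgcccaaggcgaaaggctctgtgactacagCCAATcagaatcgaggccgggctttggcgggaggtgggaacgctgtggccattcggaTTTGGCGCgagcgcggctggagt
MCM10: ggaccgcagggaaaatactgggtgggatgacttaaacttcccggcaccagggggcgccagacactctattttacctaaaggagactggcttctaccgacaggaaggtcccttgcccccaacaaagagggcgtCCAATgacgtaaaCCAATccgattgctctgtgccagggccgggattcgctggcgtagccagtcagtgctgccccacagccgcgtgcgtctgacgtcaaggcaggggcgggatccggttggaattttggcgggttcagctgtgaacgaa
MCM3: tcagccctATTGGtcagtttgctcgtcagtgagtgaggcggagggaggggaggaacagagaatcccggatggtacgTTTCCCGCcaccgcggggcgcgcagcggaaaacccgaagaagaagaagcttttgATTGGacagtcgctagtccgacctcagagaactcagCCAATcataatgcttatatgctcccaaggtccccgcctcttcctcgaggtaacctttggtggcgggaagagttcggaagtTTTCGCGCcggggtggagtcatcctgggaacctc
MCM6: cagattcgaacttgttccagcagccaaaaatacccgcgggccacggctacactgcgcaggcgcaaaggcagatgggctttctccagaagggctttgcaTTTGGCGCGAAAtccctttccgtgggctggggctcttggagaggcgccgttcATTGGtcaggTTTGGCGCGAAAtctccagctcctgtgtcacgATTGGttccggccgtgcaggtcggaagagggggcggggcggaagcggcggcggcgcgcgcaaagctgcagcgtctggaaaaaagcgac
The pair of longer capital runs in MCM6 are each made of 2 overlapping E2F-like matches, 1 on each strand. Of the 8 members with an entry in the promoter table, 6 held an E2F-like match (MCM2, MCM3, MCM6, MCM7, CDC6 and CDT1), against 3.99% of all 27305 genes in the table. CCAAT was found in 6 of the 8 (MCM3, MCM6, MCM7, MCM10, CDC45 and CDC6), against 39.7% of all genes. MCM7 and CDC45 have 3 windows each in the table, and a match in any of a gene's windows, which run to 50 bases after the start, was counted. By these spellings CDC6 held 1 E2F-like match and 3 CCAAT boxes, and MCM10 held no E2F-like match and 2 CCAAT boxes. Other spellings were not searched, so no match does not mean no E2F site. Stretches such as tttggcggg, which the CDC6 and MCM10 sequences both hold, were not counted. MCM4 and MCM5 are named only.

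On the log2 scale of the deposited values, array medians lay between 4.19 and 4.84, and the mean values of the 10 genes ranked from a percentile of 75.8 among all genes for MCM2 to 95.4 for MCM4. Of 12 epithelial markers listed, 9 were measured, and all 9 were above the array median on all 35 arrays, with KRT5 highest at a mean of 15.88. ESR1 and PGR, hormone receptors that a triple-negative line lacks, averaged 4.33 and 3.51. The leukocyte and fibroblast lists had means of at most 5.46 and 5.25 on any array, although single genes of them were high (CD68 at 14.14, FAP at 9.48).

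**Figure D1:**
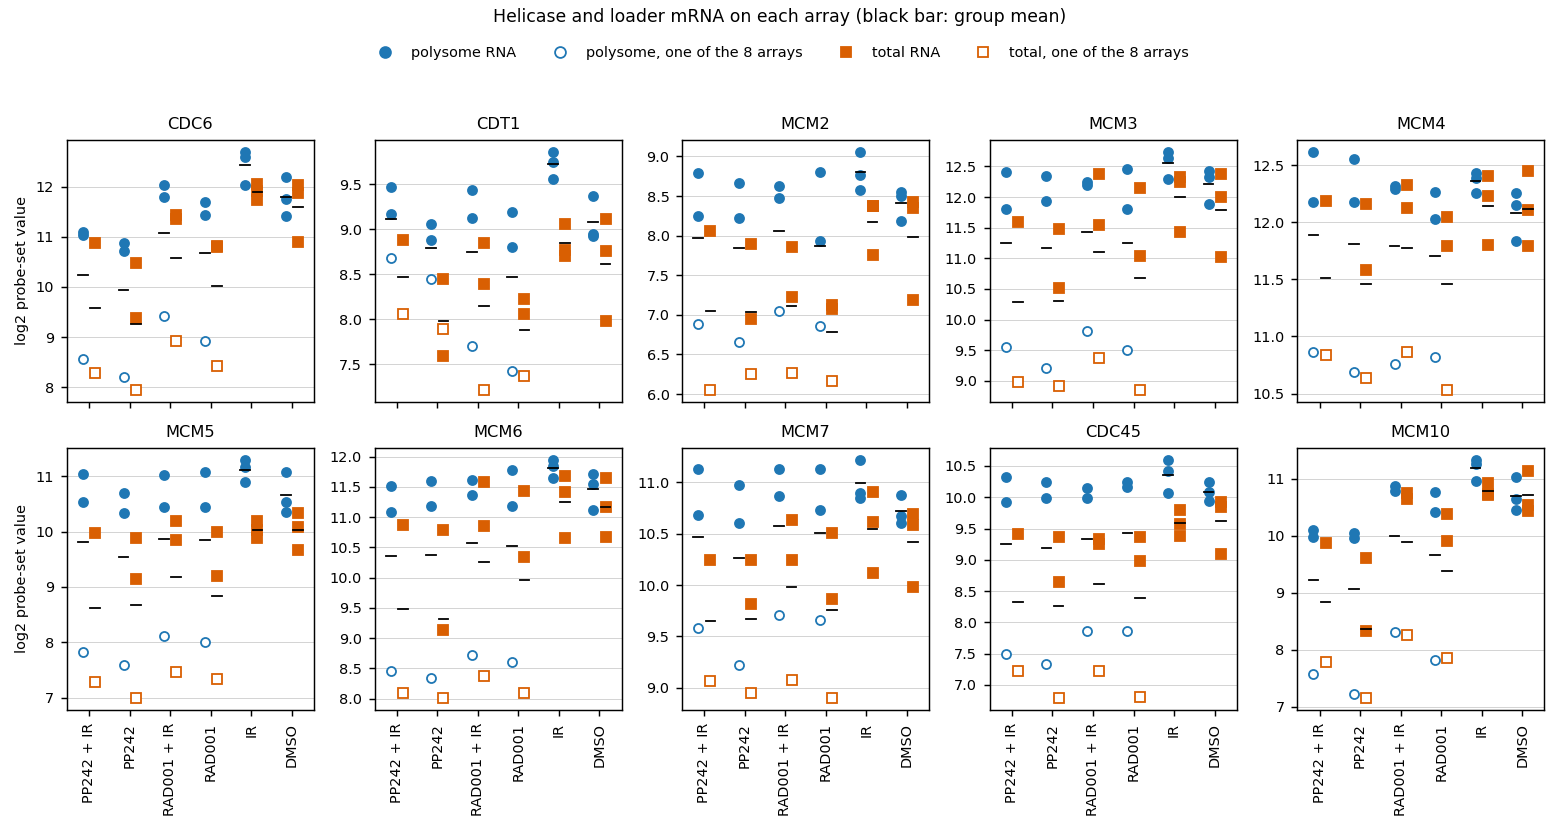
The log2 value of each of the 10 genes on every array, by treatment, with polysome RNA as circles and total RNA as squares; open symbols are the 8 arrays that stand apart and black bars are group means over all arrays. The open symbols lie lowest in their group and RNA in every panel except that of CDT1, and in the panels of CDC6 and MCM10 the filled PP242 symbols also lie below those of IR and DMSO in the same RNA.

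In this series 8 arrays were treated apart. They carry replicate number 3 in the PP242 and RAD001 groups, whether IR was given or not, and in both RNAs, except that the total RNA of PP242 with IR contributed its replicate 2. They were named from earlier results of these same data, in which these genes may have had a part, so their low values are a description. Leaving them out cut the SD of CDC6 with PP242 in polysome RNA from 1.50 to 0.12. Where the spread is cut in this way, the p-values of fits without the 8 arrays may be too small. The median of the 10 genes was 7.91 to 8.52 on these 8 arrays and 9.14 to 11.28 on the other 27. Their array medians, 4.28 to 4.48, lay within the range of the other arrays, and their epithelial marker means, 11.74 to 12.64, lay within the 11.46 to 13.00 of the others. List means on the 8 arrays were 4.86 to 5.06 for fibroblast, 5.08 to 5.24 for leukocyte and 4.28 to 4.39 for endothelial markers, against 4.85 to 5.25, 4.95 to 5.46 and 4.27 to 4.82 on the 27. Every helicase and loader value among the 8 was below the mean of the other arrays of its group. By design all 8 come from inhibitor groups, and beyond the replicate numbers given above the labels name nothing that sets them apart. The source of the difference was not tested.

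The genes were not equally low on the 8 arrays. MCM6, a subunit of the helicase ring, differed from the rest of its group by a median of -2.82 (-3.04 to -1.95), and stood at 8.01 to 8.72 against 9.13 to 11.95 on the other 27. MCM5 and MCM3, also ring subunits, had medians of -2.66 and -2.60. CDC6 (-2.50), MCM10 (-2.45) and CDC45 (-2.28) followed. Ring subunits MCM2, MCM4 and MCM7 had smaller differences, at medians of -1.5, -1.38 and -1.29. Within 1 hexamer the offset of MCM5 and that of MCM7 did not overlap (-2.97 to -2.25, against -1.56 to -1.08).

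CDT1, the loader that brings the ring to CDC6, was the exception on these arrays, and its values differed by inhibitor. Its values were 8.44 and 8.68 in polysome RNA and 7.89 and 8.06 in total RNA on the 4 PP242 arrays of the 8. They were 7.42 and 7.70 in polysome RNA and 7.37 and 7.21 in total RNA on the 4 RAD001 arrays of the 8. The PP242 arrays were all higher than the RAD001 arrays. Offsets from the rest of the group were -0.82 to -0.14 with PP242 and -1.58 to -0.76 with RAD001. For each of the other 9 genes the median offsets of the inhibitors lay closer together. These are values of 4 arrays each and were not tested.

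**Figure D2:**
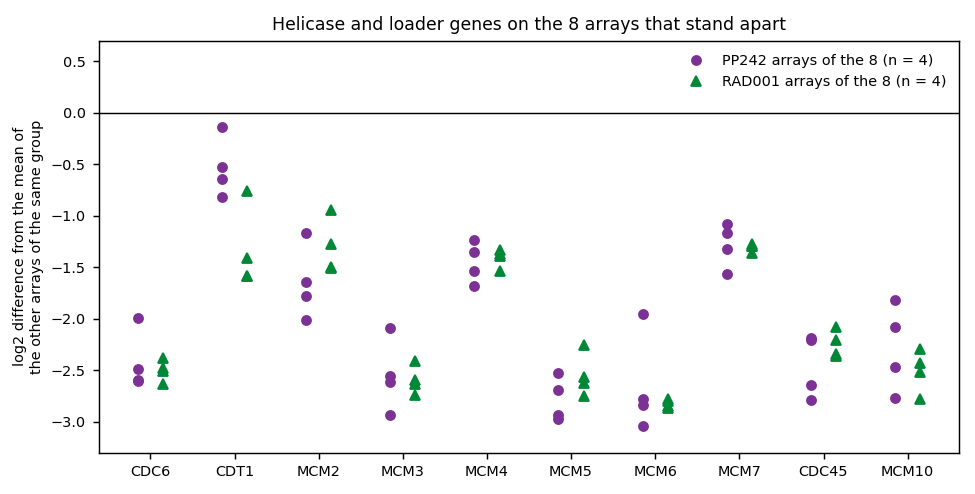
The difference of each of the 8 arrays from the mean of the other arrays of its group, on the log2 scale, for each gene, with PP242 arrays as circles and RAD001 arrays as triangles. MCM3, MCM5 and MCM6 are lowest, MCM4 and MCM7 lie between -1.68 and -1.08, and CDT1 is nearest to 0 with PP242.

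With all 35 arrays, none of the 10 genes passed the test in any of the 28 comparisons (limma, Benjamini-Hochberg adjusted p under 0.05 over all genes). The share of all genes called was 0.268% for PP242 against DMSO in polysome RNA (0.125% in total RNA). It was 0.0938% and 0.0268% for PP242 with IR against DMSO, 0.00893% for RAD001 with IR in total RNA, 4.16% for polysome against total RNA in DMSO, and 0% for the other comparisons with DMSO. Between treatments it was 0.13% for PP242 with IR against IR in polysome RNA, and 0%, 0.00447% or 0.0268% elsewhere. At an unadjusted p under 0.05, 0 members passed for PP242 against DMSO in polysome RNA (8.44% of all genes did) and 2 in total RNA, MCM10 and CDC6 (9.42%). Set against IR alone, PP242 with IR had 2 in polysome RNA (5.71%) and 1 in total RNA (5.53%). RAD001 with IR had 1 in polysome RNA (2.94%). None passed at that level in the other comparisons of the 28, where 146 to 4226 of all genes did. The design text's threshold, an unadjusted p under 0.05 with a log2 change past 1.5, took in MCM10 and CDC6 for PP242 against DMSO in total RNA (0.121% of all genes). With it, PP242 with IR against IR had 2 members in polysome RNA (0.112%) and 1 in total RNA (0.214%), all lower. The median change of the 10 genes with PP242 was -0.97 in polysome RNA and -1.36 in total RNA, with all 10 below 0, against 0.01 and 0.02 over all genes. When the 8 arrays were left out, the 2 medians were -0.07 and -0.61. The median was -0.84 and -1.35 with PP242 and IR (0.08 and -0.19 without the 8), -0.74 and -1.19 with RAD001 (-0.01 and -0.44), and -0.71 and -0.84 with RAD001 and IR (0.12 and 0.00), each time for polysome and then total RNA. The low arrays all sit in the inhibitor groups, and the main results are given with and without them.

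CDC6, the ATPase that acts with the origin recognition complex to load the ring, was lower with PP242 in every array of both RNAs. In polysome RNA it stood at 10.71, 10.88 and 8.20 with PP242 and at 11.03, 11.10 and 8.57 with PP242 and IR. It stood at 12.70, 12.03 and 12.59 with IR and at 11.76, 11.42 and 12.19 in DMSO. All 6 PP242 arrays lay below all 6 arrays without an inhibitor, which was true of 2.82% of all genes, and the third of each PP242 trio is 1 of the 8 arrays. In total RNA the values were 10.48, 9.38 and 7.94 with PP242 and 10.88 and 8.28 with PP242 and IR, against 11.73, 12.06 and 11.92 with IR and 11.87, 10.89 and 12.03 in DMSO. The 5 PP242 arrays again lay below the 6 others, as for 1.26% of all genes, but PP242 with IR replicate 1 and DMSO replicate 2 almost touched (10.88 and 10.89).

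The change in CDC6 with PP242 against DMSO was -1.86 ± 0.93 (log2, SE) in polysome RNA and -2.32 ± 0.93 in total RNA with all arrays, with adjusted p of 0.62 and 0.397. On the other 27 arrays it was -0.99 ± 0.31 (adjusted p = 0.242) and -1.66 ± 0.31 (adjusted p = 0.0524). The groups did not overlap in polysome RNA, which was also true of 12.2% of all genes in that direction, nor in total RNA, where it was true of 4.87%. Leaving out PP242 replicate 2 of total RNA as well gave -1.11 ± 0.34 there (adjusted p = 0.527). Leaving out PP242 replicate 1 (-2.21, adjusted p = 0.000844) or DMSO replicate 2 (-2.01, adjusted p = 0.0123) in its place brought a call.

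MCM10, which helps the helicase to fire, followed the same pattern. In polysome RNA it stood at 10.04, 9.95 and 7.22 with PP242 and at 9.98, 10.10 and 7.57 with PP242 and IR. It stood at 11.26, 10.95 and 11.33 with IR and at 10.64, 10.44 and 11.02 in DMSO. The highest PP242 value was thus below the lowest of the arrays without an inhibitor. In total RNA it stood at 9.61, 8.32 and 7.15 with PP242 and at 9.87 and 7.79 with PP242 and IR, against 10.73, 10.71 and 10.92 with IR and 10.54, 10.43 and 11.14 in DMSO. Again the groups did not overlap.

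MCM10 was the only member for which all 11 PP242 arrays, of both RNAs, lay below all 12 IR and DMSO arrays, as was the case for 0.17% of all genes (38 genes). That comparison crosses the RNAs, so it also depends on how a gene's level differs between them. Within each RNA, CDC6 did not overlap either. Without the 8 arrays MCM10 was still the only member in the crossed comparison (7 PP242 arrays, 0.246% of all genes). The PP242 change against DMSO was -1.63 ± 0.91 in polysome RNA and -2.34 ± 0.91 in total RNA with all arrays (adjusted p of 0.7 and 0.38). On the other 27 arrays it was -0.71 ± 0.28 (adjusted p = 0.389) and -1.74 ± 0.28 (adjusted p = 0.0319). The call in total RNA was the only one of a member in the 15 comparisons with DMSO on 27 arrays. The share of all genes called there was 0.0849%, beside 0.335% in polysome RNA, 0.103% with PP242 and IR in polysome RNA, and 0% in the other 12. The MCM10 call rests on 2 PP242 arrays, and their replicate 2 had both the lower value (8.32) and the highest array median of the series (4.84). Without that array the change was -1.09 ± 0.26 and the call was lost (adjusted p = 0.208), and without replicate 1 instead it was -2.38 ± 0.26 (adjusted p = 5.66e-05). The call was also lost without DMSO replicate 1 (-1.82, adjusted p = 0.0668) or replicate 3 (-1.52, adjusted p = 0.184). On the 27 arrays the replicate number as a block left MCM10 the only member called (-1.61 ± 0.24, adjusted p = 0.0224, with 0.0715% of all genes). Quantile normalization called both MCM10 and CDC6 there (0.402% of all genes), and both for PP242 with IR against IR in polysome RNA (0.268%).

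To use more arrays, PP242 with and without IR were averaged and set against the average of IR and DMSO, a comparison added after the data had been seen. With all 35 arrays, 0 of 10 members passed in polysome RNA (2.02% of all genes passed) and 0 in total RNA (1.02%). On the same 35 arrays the replicate number as a block called MCM10 and CDC6 in polysome RNA (4.28% of all genes). In total RNA the block called MCM6, MCM10, CDC45 and CDC6 (5.6%), and all these calls were lower. Same-numbered arrays met the pairing rule given below in no checked comparison of a PP242 group with DMSO or IR. The low array of PP242 with IR in total RNA is number 2, not 3, so the block does not match it. Array weights called CDC6 in polysome RNA (7.63%) and in total RNA (2.43%). The design text's threshold took in 2 members in polysome RNA (0.165%) and 4 in total RNA (0.223%). Without the 8 arrays, MCM10 and CDC6 passed in both RNAs, where 1.8% and 0.214% of all genes passed. The p-values without them may be too small, since the 8 arrays were named from these data and hold low values of these genes. MCM10 changed by -0.92 ± 0.20 in polysome RNA (adjusted p = 0.0181, 4 PP242 arrays against 6) and -1.33 ± 0.22 in total RNA (adjusted p = 0.0178, 3 against 6). CDC6 changed by -1.18 ± 0.22 (adjusted p = 0.00834) and -1.34 ± 0.25 (adjusted p = 0.0311). The other 8 members did not pass, with changes of -0.29 for MCM6 to 0.16 for MCM4 in polysome RNA and -0.79 for MCM6 to -0.10 for MCM4 in total RNA.

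Of these 4 calls, 2 depended on single arrays among those left out in turn. In total RNA the only PP242 with IR array could not be left out, since its group would then be empty. Leaving out 1 further array, MCM10 kept its call in 4 of 10 fits in polysome RNA (adjusted p 0.022 to 0.0994), which it lost without DMSO 3, IR 3, or replicate 1 or 2 of either PP242 group, and in 8 of 8 in total RNA (-1.65 to -1.0). CDC6 kept its call in 10 of 10 in polysome RNA (-1.28 to -1.08) and in 4 of 8 in total RNA, which it lost without IR 2 or 3 or DMSO 1 or 3 (adjusted p up to 0.0766). Without PP242 replicate 2, the total RNA array with the highest median, both stayed called at -1.0 for MCM10 and -1.07 for CDC6.

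**Figure D3:**
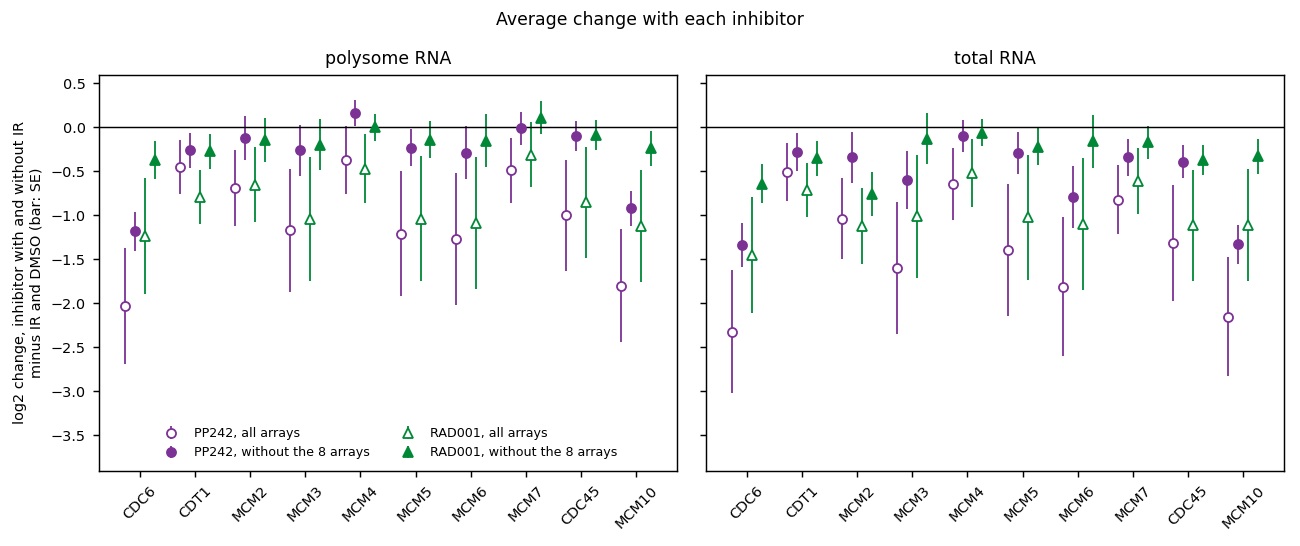
The average log2 change with each inhibitor, with and without IR, against IR and DMSO, with standard errors, in polysome RNA (left) and total RNA (right); open symbols use all arrays and filled symbols leave out the 8. With the 8 arrays left out, CDC6 and MCM10 with PP242 stand at -1.18 and -0.92 in polysome RNA, while the other 8 genes lie between -0.29 and 0.16.

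The distance of CDC6 and MCM10 from the other 8 genes was also seen inside each array, where a shift common to all 10 genes cancels. The mean of CDC6 and MCM10 minus the median of the other 8 genes was -0.68 to 0.27 on the 11 PP242 arrays (median -0.28), 0.06 to 1.00 on the 12 RAD001 arrays (median 0.43) and -0.04 to 1.24 on the 12 IR and DMSO arrays (median 0.86). The 4 PP242 arrays among the 8 had gaps of -0.68 to -0.04, and the other 7 had -0.50 to 0.27. The ranges of PP242 and of IR with DMSO overlap through 1 array without an inhibitor, DMSO replicate 2 in polysome RNA, at -0.04. The pair was chosen after its values were seen, so this is a description.

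**Figure D4:**
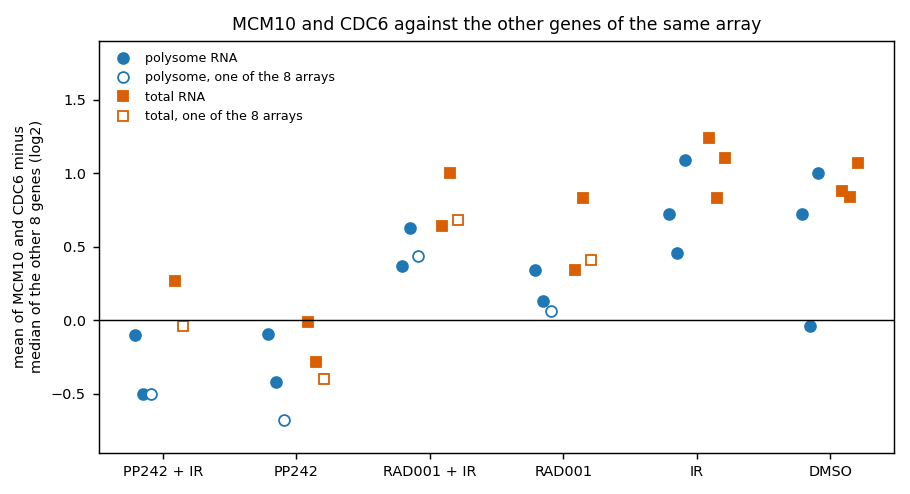
The mean of MCM10 and CDC6 minus the median of the other 8 genes on each array, in log2 units, by treatment, with polysome RNA as circles, total RNA as squares and the 8 arrays open. PP242 arrays lie between -0.68 and 0.27, RAD001 arrays between 0.06 and 1.00, and IR and DMSO arrays between -0.04 and 1.24.

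Both genes were lower with PP242 than with RAD001, which targets complex 1, but the difference did not pass in the fit used throughout, which does not pair arrays. Same-numbered arrays of the inhibitors deviated together, with correlations of 0.533 to 0.807 in polysome RNA and 0.469 to 0.712 in total RNA. With IR they were 0.497 to 0.82 in polysome RNA. Fits of those groups alone, with the number as a block, called 0 members (0.00893%, 0% and 0.0134% of all genes in that order). Averaged over IR, PP242 minus RAD001 was -0.68 ± 0.64 for MCM10 and -0.80 ± 0.66 for CDC6 in polysome RNA with all arrays, where 0.273% of all genes passed. In total RNA it was -1.04 ± 0.68 for MCM10 and -0.87 ± 0.70 for CDC6 (0.0893% of genes). On 27 arrays MCM10 differed by -0.69 ± 0.22 in polysome RNA (adjusted p = 0.346) and by -1.0 ± 0.24 in total RNA (adjusted p = 0.112). CDC6 differed by -0.81 ± 0.24 (adjusted p = 0.291) and -0.70 ± 0.27 (adjusted p = 0.384). The shares of genes called were 0.237% in polysome RNA and 0.143% in total RNA. For MCM10 in total RNA on these arrays, the difference was called with the replicate number as a block (-1.05, adjusted p = 0.0359, with 0.469% of all genes) and with quantile normalization (-0.98, adjusted p = 0.0137, with 0.791%). The values were ordered the same way inside the 8 arrays: MCM10 was 7.15 to 7.79 with PP242 and 7.81 to 8.31 with RAD001. CDC6 there was 7.94 to 8.57 with PP242 and 8.43 to 9.41 with RAD001, which overlapped across the RNAs but not within either. On the other arrays MCM10 was 8.32 to 10.10 with PP242 and 9.91 to 10.86 with RAD001, and CDC6 was 9.38 to 11.10 and 10.80 to 12.04.

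Against DMSO, RAD001 gave changes of -1.10 ± 0.93 for CDC6 and -1.04 ± 0.91 for MCM10 in polysome RNA, and -0.22 ± 0.31 and -0.11 ± 0.28 without the 8 arrays. In total RNA the changes were -1.58 ± 0.93 for CDC6 and -1.32 ± 0.91 for MCM10, and -0.78 ± 0.31 and -0.56 ± 0.28 without the 8 arrays (adjusted p of 0.578 and 0.677). None of these changes was called, and the ones nearest to 0 were those of polysome RNA without the 8 arrays. In total RNA 3 members did not overlap DMSO, all lower (MCM2, MCM10 and CDC6), as did 4.97% of all genes. MCM2, a ring subunit, stood there at 7.13, 7.07 and 6.16 with RAD001 and at 8.35, 7.19 and 8.42 in DMSO. The gap to the lowest DMSO array was narrow, and the change was -1.20 ± 0.61 (adjusted p = 0.676), or -0.89 ± 0.36 without the 8 arrays (adjusted p = 0.582). In total RNA, replicate 2 of PP242, of RAD001 and of DMSO had the highest array medians of all arrays (4.84, 4.68 and 4.56), and their part in the lower values was not tested. Averaged over IR, RAD001 called 0 of 10 members in polysome RNA (0.00893% of all genes) and 0 in total RNA (0.835%), and 0 in both without the 8 arrays (0% and 0.482%). At an unadjusted p under 0.05, 1 member passed in polysome RNA and 3 in total RNA with all arrays, beside 5.38% and 14.3% of all genes.

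Of the ring itself, MCM3 was measured at 11.93, 12.35 and 9.21 with PP242 and at 11.88, 12.32 and 12.42 in DMSO in polysome RNA. Outside the 8 arrays the PP242 values thus lay inside the DMSO range. MCM4 stood at 12.18, 12.56 and 10.69 with PP242 and at 11.84, 12.15 and 12.26 in DMSO. Its PP242 change turned sign without the 8 arrays, at -0.27 with all and 0.29 ± 0.22 without, and MCM2, MCM7 and CDC45 turned to 0.03, 0.07 and 0.03. MCM6 stayed lower in total RNA, at 10.79, 9.13 and 8.01 with PP242 against 11.17, 10.67 and 11.65 in DMSO. That change was -1.85 ± 1.06 with all arrays and -1.20 ± 0.43 without the 8 (adjusted p = 0.303), and 2 of its values came from the array of raised median and from 1 of the 8. Without both it was -0.37 ± 0.45 (adjusted p = 0.991). CDC45, which joins the ring at firing, stood at 9.99, 10.24 and 7.33 with PP242 and at 9.94, 10.08 and 10.24 in DMSO in polysome RNA.

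With IR alone, all 10 genes were above DMSO in polysome RNA, by 0.27 for MCM7 to 0.65 for CDC6 and CDT1 (median 0.37, against 0.00 over all genes), and none passed, as no gene of the table did. At an unadjusted p under 0.05, 0 members passed with all arrays (0.809% of all genes did), and 2 (CDC6 and CDT1) without the 8 (1.09%). CDT1 stood at 9.86, 9.56 and 9.75 with IR and at 8.95, 8.92 and 9.37 in DMSO, with no overlap (0.65 ± 0.44, adjusted p = 1). MCM2 also did not overlap, at 9.06, 8.58 and 8.76 with IR and 8.18, 8.50 and 8.55 in DMSO. Groups did not overlap upward for 4.64% of all genes. Same-numbered IR and DMSO arrays of polysome RNA deviated together (correlations of 0.125 to 0.335). Within these 3 pairs 8 of the 10 genes, all but MCM3 and CDC45, were higher with IR each time, as were 13.1% of all genes. The rise was 0.56 to 0.95 in pair 1, but only 0.02 to 0.10 for MCM2, MCM4, MCM5, MCM6 and MCM7 in pair 2. The genes vary together, so they do not count as separate observations. A fit of these 6 arrays with the pairs as a block called no member and no gene. In total RNA the median change was 0.11, with CDC45 at -0.04 and CDC6 highest at 0.31. The interaction of IR with either inhibitor passed for no member and for no gene in the limma fit. At an unadjusted p under 0.05 it passed for 0 members, and for 146 to 293 of all genes.

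CDT1 ranked differently from the other loader across the treatments. In polysome RNA it averaged 9.11 ± 0.40 (SD, n = 3) with PP242 and IR, 8.79 ± 0.32 with PP242, 8.75 ± 0.92 with RAD001 and IR, 8.47 ± 0.93 with RAD001, 9.73 ± 0.15 with IR and 9.08 ± 0.25 in DMSO. CDC6 averaged 10.23 ± 1.44 with PP242 and IR, 9.93 ± 1.50 with PP242, 11.08 ± 1.45 with RAD001 and IR, 10.69 ± 1.53 with RAD001, 12.44 ± 0.36 with IR and 11.79 ± 0.38 in DMSO. IR was highest for both, but CDC6 was lowest with PP242 and CDT1 with RAD001. Outside the 8 arrays CDT1 was 8.97 ± 0.13 with PP242 (n = 2) and 9.0 ± 0.27 with RAD001 (n = 2), values that do not differ beyond their spread, so the low place of RAD001 for CDT1 came with the 8 arrays. With all arrays, only IR was separated from its nearest group by more than both SDs together for CDT1, and neighbouring groups of CDC6 overlapped within theirs. Without the 8, CDC6 was 10.80 ± 0.12 with PP242, 11.06 ± 0.04 with PP242 and IR and 11.57 ± 0.19 with RAD001 (n = 2 each). Each of these neighbours was apart by more than both SDs, while RAD001, DMSO, RAD001 with IR, and IR overlapped in turn.

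Translational efficiency was tested as an interaction, in which the change in total RNA is subtracted from that in polysome RNA. No member passed in any of the 5 comparisons with DMSO, nor did any gene, with or without the 8 arrays. At an unadjusted p under 0.05, 0 members passed with all arrays, where 197 to 684 of all genes did. Without the 8, 1 passed: MCM10 with PP242, at 1.03 ± 0.39 (adjusted p = 1), where 2.32% of all genes passed. That value turned on PP242 replicate 2 of total RNA, the array of highest median: it was 0.39 ± 0.33 without it (adjusted p = 0.949), and 1.67 ± 0.33 (adjusted p = 0.017) where it was the only PP242 array of total RNA left. With PP242 and IR the value was 0.17 ± 0.45. Median values of the 10 genes were 0.48 with PP242 and IR, 0.42 with PP242, 0.12 with RAD001 and IR, 0.33 with RAD001 and 0.28 with IR, and medians over all genes lay between -0.01 and 0.04. Without the 8 arrays they were 0.15 with PP242 and IR, 0.62 with PP242, 0.16 with RAD001 and IR, 0.45 with RAD001 and 0.28 with IR, another order (-0.04 to 0.05 over all genes). MCM6 had the highest value with PP242, 0.77 ± 1.50, and 1.13 ± 0.61 without the 8 arrays (adjusted p = 1), which became 0.30 ± 0.58 without PP242 replicate 2 of total RNA too. In DMSO, polysome minus total RNA was -0.03 for MCM4 to 0.63 for MCM5, with a median of 0.35, and leaving out DMSO replicate 2 of total RNA moved that median to 0.04.

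The 10 genes varied together. Over 35 arrays the 45 pairs had Pearson r of 0.74 to 0.99 (median 0.93), and over the other 27 arrays r was 0.47 to 0.96 (median 0.80). The arrays share treatments and RNA fractions, so these are descriptions. CDC6 and MCM10 had r of 0.99 and 0.95, MCM3 and MCM6 had 0.96 over 27 arrays, and MCM4 with MCM10 had the lowest, 0.47. The genes outside the 10 nearest to their mean over 35 arrays were PARP1, a DNA break sensor, at 0.99, LRIG3 and ORC1 at 0.98, and UHRF1 and CPSF3 at 0.97. Over 27 arrays they were PREP at 0.96 and ADAR, PPRC1, PARP1 and XPNPEP1 at 0.95.

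Related genes were counted from lists chosen with earlier results known. With all arrays, none of the 6 origin recognition genes, 6 MCM paralogs and binding proteins, 13 GINS and firing factors, 13 licensing controls, 13 E2F and RB family genes or 24 fork genes passed for PP242 or RAD001 against DMSO in either RNA. Median PP242 changes of the 6 lists in polysome RNA ran from -0.68 for licensing controls to -0.25 for the paralogs, and from -0.31 for licensing controls to -0.13 for the paralogs without the 8 arrays, against 0.01 over all genes in both. On the 27 arrays 2 passed in that comparison, where 0.335% of all genes did. They were GINS1, a subunit of the GINS complex, at -0.83 ± 0.17 (adjusted p = 0.037), and SKP2, the ubiquitin ligase subunit that marks CDT1 for destruction, at -1.44 ± 0.28 (adjusted p = 0.0315). GMNN, the inhibitor of CDT1, stood at -0.96 ± 0.19 in total RNA (adjusted p = 0.066), and CDC25A, the phosphatase that activates CDK2, at -1.58 ± 0.32 (adjusted p = 0.066). In the average over IR with all 35 arrays, ORC2 (-0.45 ± 0.10, adjusted p = 0.016), SKP2, CDC25A and TIPIN, a fork protection factor, passed as lower with PP242 in polysome RNA, where 2.02% of all genes passed. In total RNA, where 1.02% did, MCMBP, which binds MCM subunits (-0.81 ± 0.20, adjusted p = 0.0461), CDC25A and TFDP1, the partner of E2F proteins (-0.71 ± 0.16, adjusted p = 0.023), passed. Of these, ORC2 (adjusted p = 0.145), MCMBP (0.0527) and TFDP1 (0.171) were no longer called without the 8 arrays. In that average without the 8 arrays, 1.8% of all genes passed in polysome RNA and 0.214% in total RNA. In polysome RNA, 1 of 6 origin recognition genes (ORC1), 0 of 6 paralogs and 2 of 13 GINS and firing factors (GINS1 and DONSON) passed as lower with PP242. So did 4 of 13 licensing controls (DTL, SKP2, CCNE2 and CDC25A), 1 of 13 E2F and RB genes (E2F2) and 2 of 24 fork genes (POLD3 and TIPIN). None of these lists had a gene that passed upward. In total RNA, CDC25A alone passed among the genes of these lists.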

How the data were processed

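RNA of SUM149 cells was measured on 35 Affymetrix arrays, grouped by the labels. The authors deposited 1 table of 65029 probe sets whose unit, read from the values (1.85 to 19.92), is log2; for the background correction, normalization and centring a statement is not given in the sources used here. The highest values exceed what 16 bits give directly. The labels' growth and extraction protocols describe mouse tissue and were not used. Of the probe sets, 23077 carried 1 symbol, 1357 several and 40595 none in the platform annotation; where a symbol had several probe sets the one highest on average represented it, which gave 22384 genes. No values were missing. The number of arrays limits the precision.

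Changes were tested with limma 3.58.1 (lmFit, eBayes) in R 4.3.3, in 1 fit of 12 group means (23 residual and 2.69 prior degrees of freedom; 15 and 3.24 without the 8 arrays), with Benjamini-Hochberg adjustment over all genes. ± after a change is its standard error. There were 28 comparisons, 15 of them with DMSO as the design text names them, and 8 averages over IR added after the data were seen. The design text's threshold (p under 0.05, log fold change over 1.5) was run as an alternative, as were quantile normalization, array weights, a filter on low values, all probe sets, only the groups compared, a replicate block and leaving out each array. The script was tested on simulated data. The members and lists were chosen with earlier results of these data known. The text names the 10 genes, up to 3 genes of each list with the lowest p, those of a list that passed, and the 5 genes most like the mean of the 10. Whether replicate numbers pair arrays was checked from the deviations of same-numbered arrays (a correlation over 0.1 in each of 3 pairs): this held in 4 of 18 comparisons of 2 groups, IR against DMSO in polysome RNA and PP242 against RAD001 in polysome RNA, in total RNA and, with IR, in polysome RNA. Over the 29 pairs with DMSO, 14 correlations exceeded 0.1 (-0.216 to 0.514). The labels give the numbers no shared culture or day. Nothing says that replicates, called biological in the labels, were separate cultures, so p-values measure only the spread between these samples. Figures were drawn with matplotlib 3.10.9.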

Additional observations from a re-analysis of the deposited data

How the results depend on the processing

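With all arrays, the count of members called stayed at 0 in each of the 28 comparisons under quantile normalization, a filter on low values, all probe sets and only the groups compared. Without the 8 arrays it was 1 for PP242 against DMSO in total RNA, and 2 for the PP242 average in polysome and 2 in total RNA. Calls without these arrays carry the limit that they were named from these data, so the p-values may be too small. The design text's threshold gave 2 for PP242 against DMSO in total RNA (0.121% of all genes), 2 for PP242 with IR against IR in polysome RNA (0.112%) and 1 for the same in total RNA (0.214%). The replicate block gave 2 and 4 for the PP242 average in polysome and total RNA (4.28% and 5.6% of all genes). The numbers met the pairing rule in no checked comparison of a PP242 group with DMSO or IR, which limits these block calls. Array weights gave 1 and 1 (7.63% and 2.43%), and leaving out single arrays gave 0 to 1 in total RNA. With the block, the PP242 average was -1.80 and -2.39 for MCM10 and -2.03 and -2.56 for CDC6 in polysome and total RNA (adjusted p 0.0325, 0.0103, 0.0187 and 0.00872), and without the 8 arrays as well -0.79, -1.25, -1.06 and -1.27. With all 35 arrays the block changed no call of a member in the 28 comparisons, in the whole fit or, where 2 groups share 3 numbers, in a fit of those groups alone. On the 27 arrays it kept the MCM10 call for PP242 against DMSO in total RNA (-1.61) and called no other member in the comparisons with DMSO. Array weights gave -1.57 and -2.46 for CDC6. Without the 8 arrays the averages were -0.92 and -1.33 for MCM10 and -1.18 and -1.34 for CDC6, and with quantile normalization too -0.84, -1.29, -1.12 and -1.24. Leaving out single arrays, within the 35 or the 27, they ran from -2.04 to -0.84 and from -2.67 to -1.0 for MCM10 and from -2.27 to -1.08 and from -2.97 to -1.07 for CDC6. Among the 27, the only PP242 with IR array of total RNA was not left out. PP242 minus RAD001 for MCM10 in total RNA was called without the 8 arrays under the block (-1.05, adjusted p = 0.0359) or quantile normalization (-0.98, adjusted p = 0.0137), and ran from -1.56 to -0.52 without single arrays.

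The polysome change with PP242 turned to 0.033 for MCM2, 0.29 for MCM4, 0.069 for MCM7 and 0.031 for CDC45 without the 8 arrays, and to 0.001 for MCM4 under array weights. Leaving out single arrays gave -0.97 to 0.033, -0.65 to 0.29, -0.81 to 0.069 and -1.42 to 0.031 for these 4, the upper ends without PP242 replicate 3. The median of the 10 genes for PP242 with IR against DMSO in total RNA, a group of 2 arrays, was -0.19 without the 8 arrays and -2.57 to -0.19 without single arrays. For translational efficiency the median ran from 0.10 to 0.56 with IR and from -0.64 to 1.53 with PP242 and IR, and for polysome against total RNA in DMSO from 0.040 to 0.58. The causes of these changes were not tested, beyond the fewer arrays each of these fits uses. A lone array left in a group was taken to vary like the others.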
